A study of Mus musculus with 35 samples.

Results

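The genes of cholesterol synthesis and sterol handling were followed in mouse liver across inhaled doses of styrene. The list held 30 genes, of which 26 had a probe set that named them alone, out of 17097 genes so measured. They were chosen by name along the pathway, from acetyl-CoA to cholesterol, with genes of sterol sensing, control, transport and export. Acat2, Pmvk, Abca1 and Soat2 had no such probe set and were not analysed here. The 35 livers came from adult male C57Bl/6 mice of wild-type genotype. Each mouse breathed vapour or air alone in its own wire-mesh cage for 6 h and was killed the following morning. Doses were 0 (air), 1, 5, 10, 20, 40 and 120 ppm, each in 5 mice with an array apiece, and no other agent or allele was named in the labels. All mice were of 1 strain and sex and shared the label of 1 day, and feeding was not restricted. No hour of sampling was given by group, so a difference in hour between doses cannot be told apart from dose. Styrene, the monomer of polystyrene, is oxidised in liver to a reactive epoxide.

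Hepatocytes build cholesterol from acetyl-CoA through mevalonate, isoprenoids, squalene and lanosterol. When membrane sterol in the endoplasmic reticulum is low, SCAP carries SREBP2 to the Golgi, where it is cut, and the released factor enters the nucleus and raises transcription of nearly every enzyme of the route. INSIG proteins hold SCAP back when sterol is plentiful. Excess sterol activates LXR, which raises the ABCG5 and ABCG8 exporters that pass sterol into bile. SREBP2 works at promoters through sterol regulatory elements, often next to CCAAT boxes bound by NF-Y.

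Promoters are shown for 4 synthesis genes whose calls open the account of the late pathway, Lss, Msmo1 and Hsd17b7, which rose, and Ebp, which fell, and for Hmgcs1, the member of these 5 with a match to the core of the sterol element. Each run is the 250 bases before the annotated start, 5′ to 3′ on the gene's strand, from RefSeq on GRCm38.p6. Capitals mark the CCAAT box in either orientation (CCAAT or ATTGG), the sterol element core CACNCCAC and the E-box CACGTG, searched on both strands. The windows lie at chr13:119690101-119690350 on the plus strand for Hmgcs1, chr10:76531355-76531604 on the plus strand for Lss and chr8:64733579-64733828 on the minus strand for Msmo1. Those of Hsd17b7 and Ebp lie at chr1:169969206-169969455 and chrX:8193513-8193762, both on the minus strand.
Hmgcs1: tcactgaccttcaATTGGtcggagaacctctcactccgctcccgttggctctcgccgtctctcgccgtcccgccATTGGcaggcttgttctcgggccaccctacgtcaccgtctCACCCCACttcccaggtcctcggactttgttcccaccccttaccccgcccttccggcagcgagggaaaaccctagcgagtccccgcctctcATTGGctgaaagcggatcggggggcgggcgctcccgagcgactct
Lss: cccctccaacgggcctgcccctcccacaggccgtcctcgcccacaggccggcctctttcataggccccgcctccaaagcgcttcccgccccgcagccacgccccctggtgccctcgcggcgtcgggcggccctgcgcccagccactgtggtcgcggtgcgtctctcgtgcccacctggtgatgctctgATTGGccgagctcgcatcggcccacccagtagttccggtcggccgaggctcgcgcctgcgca
Msmo1: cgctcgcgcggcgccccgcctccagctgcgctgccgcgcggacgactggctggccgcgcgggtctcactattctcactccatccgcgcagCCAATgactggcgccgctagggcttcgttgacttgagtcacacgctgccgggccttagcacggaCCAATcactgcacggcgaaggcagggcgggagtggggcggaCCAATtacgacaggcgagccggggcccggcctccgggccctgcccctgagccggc
Hsd17b7: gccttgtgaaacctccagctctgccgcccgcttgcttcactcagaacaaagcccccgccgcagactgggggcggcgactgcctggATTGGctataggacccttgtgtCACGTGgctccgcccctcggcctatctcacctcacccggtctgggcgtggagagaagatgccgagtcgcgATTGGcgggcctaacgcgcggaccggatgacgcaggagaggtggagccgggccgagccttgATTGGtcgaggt
Ebp: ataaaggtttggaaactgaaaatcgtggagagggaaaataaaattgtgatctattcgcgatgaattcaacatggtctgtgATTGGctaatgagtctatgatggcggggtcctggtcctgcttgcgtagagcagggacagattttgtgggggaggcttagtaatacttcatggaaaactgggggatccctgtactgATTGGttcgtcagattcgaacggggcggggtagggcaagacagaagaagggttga
Hmgcs1 held 3 CCAAT boxes and 1 sterol element core, Lss held 1 CCAAT box, and Msmo1 held 3. Hsd17b7 held 3 CCAAT boxes and 1 E-box, and Ebp, which moved the other way in the data, held 2 CCAAT boxes.

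No promoter window was matched for Fdft1, Fdps, Sqle, Stard4 and Npc1, so these were not searched. The full windows run from 250 bases before to 50 after the start, and 21 measured members had a matched window. A CCAAT box was found in 20 of these 21, all but Scap, against 37.4% of 32851 windows. The core CACNCCAC was found in 2 of 21, Hmgcs1 and Insig1, against 6.24% of windows. The longer sterol element, which adds a pair of bases before that core, was found in 0 of 21, against 0.234% of windows. The E-box CACGTG was in 5 of 21, namely Hsd17b7, Sc5d, Dhcr7, Scap and Insig1, against 7.15%. The D-box TTANNTAA, a clock-related motif, was in Insig2 alone, against 6.00%, and the LXR element, a direct repeat with a 4-base spacer, was in 0 of 21, against 0.0152%. Abcg5 and Abcg8 are transcribed away from each other and their windows share 209 bases, so their matches were not independent. A member was counted if any of its windows held a match, while the shares are of single windows. Members with several windows, such as Dhcr7 and Scap, thus had more room for a match. These matches describe letters in the windows. They were not compared with binding data.

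Across all 45037 probe sets tested, arrays correlated with each other at 0.965 to 0.995. Values are on a log2 scale, so a difference of 1 is a 2-fold change, and a call is an adjusted p under 0.05 from limma with Benjamini-Hochberg adjustment over all probe sets. The array median averaged 3.598 at 120 ppm and 3.572 at 40 ppm, against 3.503 in air. Actin control probe sets read more at the 3′ than at the 5′ end of the transcript, a gap that serves as a measure of RNA integrity and labelling, and it averaged 0.717 at 120 ppm, 0.706 at 40 ppm and 0.724 at 20 ppm, against 0.478 in air. Summed hepatocyte markers had a median of 57360 at 120 ppm and 57550 at 40 ppm, against 54260 in air, with ranges that overlapped. Of 6 Kupffer cell markers, 4 were called lower at 120 ppm and 2 at 40 ppm, and their summed level was 1279 to 1959 at 120 ppm and 1496 to 1863 at 40 ppm, against 1832 to 3378 in air. The summed lung markers, Sftpc and Scgb1a1, had a median of 151.8 in air (36.43 to 901.1) and of 24.51, 32.27, 24.34, 22.64, 38.2 and 38.55 at 1, 5, 10, 20, 40 and 120 ppm. The air median thus stood above that of every dose, and both markers were called lower at 20, 40 and 120 ppm. Summed markers of exocrine pancreas were at 156.9 to 189.6 at 120 ppm and 164.3 to 188.6 at 40 ppm, below all air mice at 263.8 to 420, and 1 of 3, Cela1, was called lower at 20, 40 and 120 ppm. Those of steroid-making cells had a median of 180.4 at 120 ppm and 389 at 40 ppm, against 120.8 in air, with overlap, and 1 of 4, Cyp17a1, was called higher, at 40 ppm. Of 5 stellate cell and fibroblast markers Col3a1 was called lower at 40 and 120 ppm, and of 5 endothelial markers Stab2 was called higher at 40 ppm. The 4 clock genes Dbp, Per3, Usp2 and Ciart were all called higher at 40 and at 120 ppm, with median changes of 2.57 and 2.74, and 2 of them at 20 ppm. The part of these measures in the results below was not tested. In 3 mice, 1 ppm replicate 4, 10 ppm replicate 2 and 20 ppm replicate 5, the synthesis enzymes stood low as a group, and counts that leave them out are given further on. In whole liver, fewer cells of a type and less RNA per cell cannot be told apart.

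Calls among the sterol genes came mostly at the upper doses, and most were rises. At 40 ppm 8 of 26 members rose and 1 fell, while of all probe sets tested 9.73% rose and 4.89% fell. The 1 fall was that of Ebp, a count near the background share. At 120 ppm 8 rose and 0 fell, against 13% of probe sets higher and 6.4% lower. With arrays centred on their medians 5 rose and 1 fell at 120 ppm, and 5 rose there without any 1 of air replicate 2 and 120 ppm replicates 1 and 3. A fit of only the groups compared gave 13 higher at 40 ppm. The share of all probe sets called in these refits was not determined, so their counts have no background beside them. Among brighter probe sets, those above the median level like every measured member, the background was 13.8% higher and 6.34% lower at 40 ppm and 15.8% higher and 8.56% lower at 120 ppm. The median change of the members was 0.40 at 40 ppm and 0.39 at 120 ppm, while that of all probe sets was 0.04 and 0.06. All 5 mice lay above all air mice for 9 members at 40 ppm and 6 at 120 ppm, as for 8.64% and 8.9% of probe sets. They lay below all air mice for 1 member and 0, as for 4.22% and 4.73% of probe sets. At both doses 20 members had a change above 0 and 6 a change below 0. The 7 genes called higher at both doses were Sqle, Lss, Msmo1, Hsd17b7, Mylip, Stard4 and Abcg5, and both comparisons used the same air mice. Fdft1 was called at 40 ppm alone and Ggps1 at 120 ppm alone, and the direct test between those doses called neither.

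**Figure D1:**
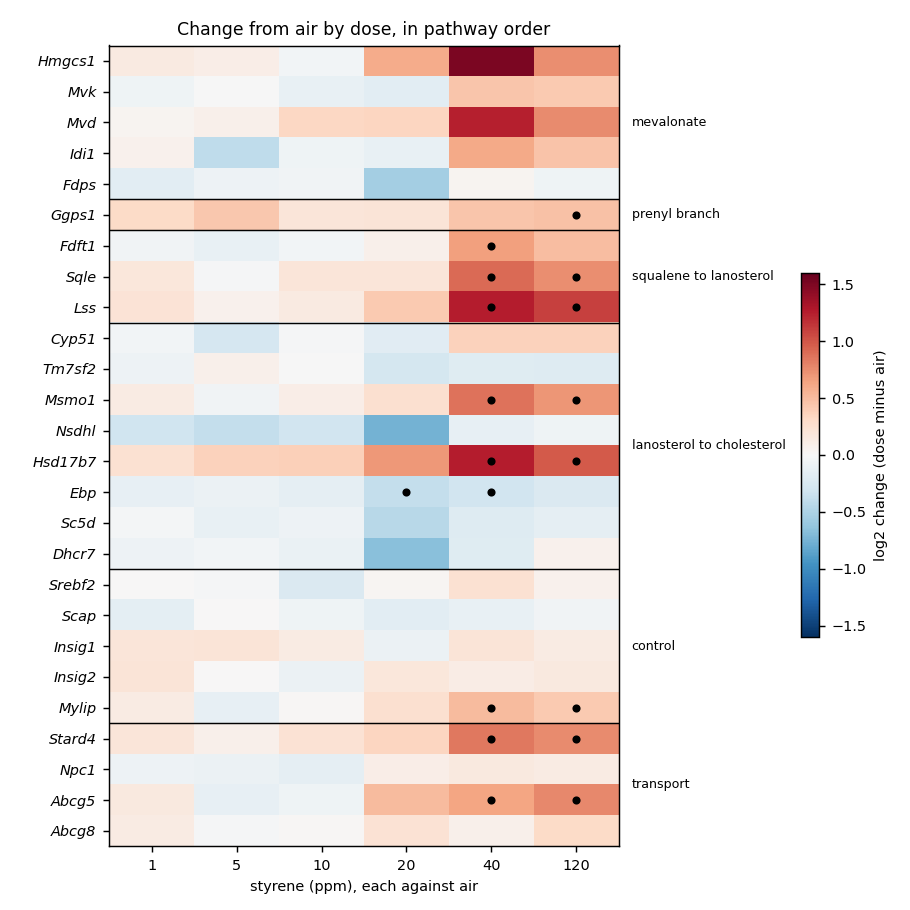
Mean log2 change from air (dose minus air, colour scale) of the 26 measured members in pathway order at each styrene concentration in ppm. Black dots mark an adjusted p under 0.05, with 8 rises at 40 ppm and 8 at 120 ppm, and the falls called were those of Ebp at 20 and 40 ppm.

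At 1, 5 and 10 ppm 0 of 26 members passed by limma, where 0.00444%, 0.153% and 0% of probe sets were called in either direction. At an unadjusted p under 0.05 there were 0 members at 1 ppm, 2 at 5 ppm (Ggps1 at 0.43 and Hsd17b7 at 0.37) and 1 at 10 ppm (Hsd17b7 at 0.38). Member changes spanned -0.32 to 0.31 at 1 ppm, -0.41 to 0.43 at 5 ppm and -0.31 to 0.38 at 10 ppm. At 20 ppm 0 members rose and 1 fell, Ebp, against 0.415% of probe sets higher and 0.619% lower. An intensity-dependent prior, array weights, brighter probe sets alone, a replicate block or a place covariate each gave 1 member higher there.

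The steps from farnesyl units to lanosterol rose together at 40 ppm. Squalene synthase (Fdft1), squalene epoxidase (Sqle) and lanosterol synthase (Lss) act in this order, and all 3 passed at 40 ppm and the last 2 at 120 ppm. Lss had log2 values of 7.25, 6.34, 6.72, 6.75 and 7.00 at 40 ppm and 7.49, 6.93, 6.61, 6.20 and 6.00 at 120 ppm, against 5.81, 5.53, 5.19, 5.47 and 5.74 in air. Every mouse of both doses lay above every air mouse. The change was 1.26 ± 0.31 (SE), or 2.40-fold, at 40 ppm (limma adjusted p = 0.00592) and 1.10 ± 0.31, or 2.14-fold, at 120 ppm (adjusted p = 0.0125).

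Sqle, a slow and regulated oxygen-using step, had 10.16, 9.76, 9.75, 9.71 and 9.86 at 40 ppm and 10.15, 9.82, 9.85, 9.37 and 9.20 at 120 ppm, against 8.89, 8.88, 9.07, 8.80 and 9.04 in air. The groups did not overlap with air, and 120 ppm replicates 4 and 5 came closest to it. Sqle rose by 0.91 ± 0.24 at 40 ppm (adjusted p = 0.00979) and by 0.74 ± 0.24 at 120 ppm (adjusted p = 0.0275). The call at 120 ppm ended without any 1 of air replicates 2 and 4 and 120 ppm replicates 1, 2 and 3 (adjusted p up to 0.0835), and with arrays centred on their medians (0.64, adjusted p = 0.0587). Fdft1, the first enzyme committed to sterols, had 11.68, 11.03, 11.14, 11.09 and 11.33 at 40 ppm and 11.49, 11.44, 11.20, 10.74 and 10.54 at 120 ppm, against 10.35, 10.55, 10.79, 10.67 and 10.60 in air. All 40 ppm mice exceeded air, and 120 ppm replicates 4 and 5 lay among the air mice. Fdft1 rose by 0.66 ± 0.19 at 40 ppm (adjusted p = 0.0188, and 0.0648 without 40 ppm replicate 1), and its change of 0.49 at 120 ppm did not pass (adjusted p = 0.069).

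**Figure D2:**
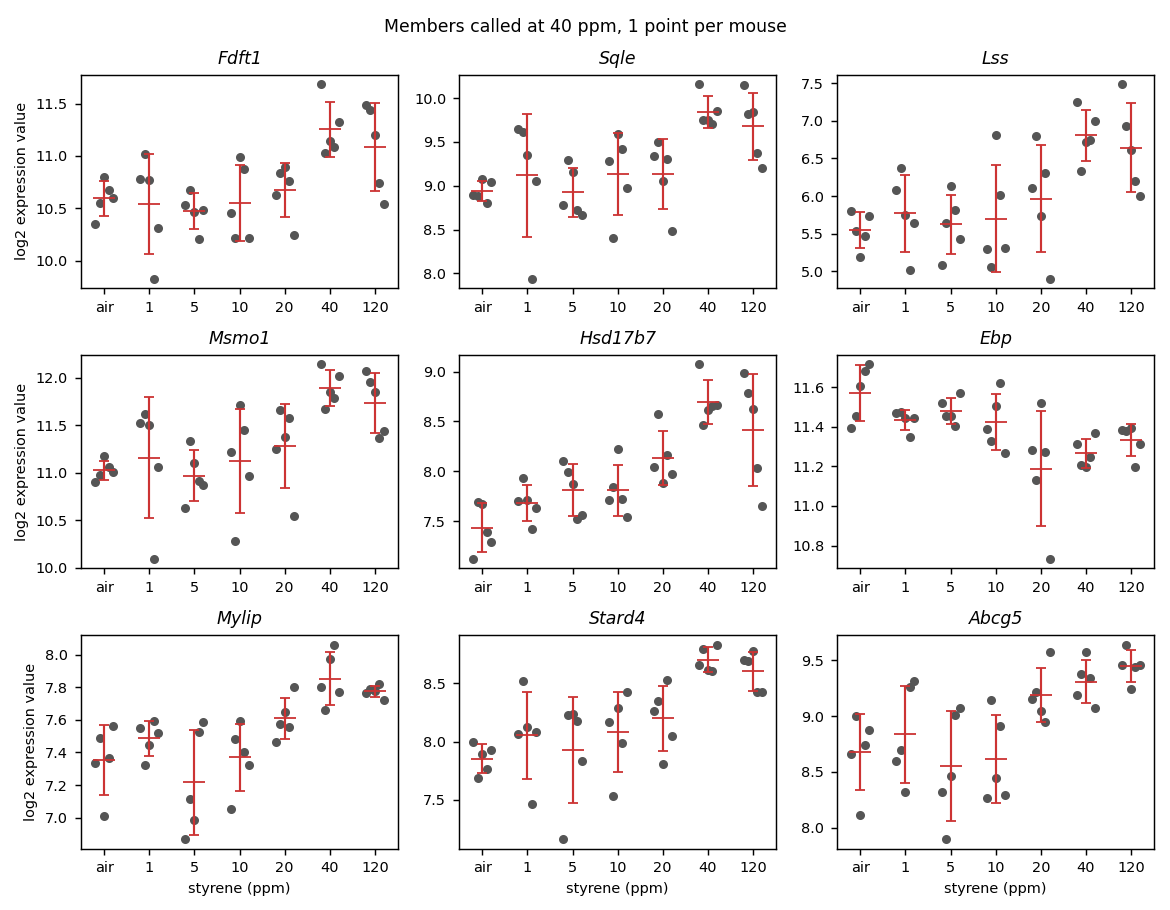
Log2 expression values of 9 members by styrene concentration in ppm, with 1 grey point per mouse and red lines for the mean ± SD of 5 mice. Lss, Sqle and Stard4 at 40 and 120 ppm lay above all air mice, while Ebp at 40 ppm lay below them.

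Past lanosterol the changes had both signs. Of 8 measured members, 2 rose and 1 fell at 40 ppm, and 2 rose and 0 fell at 120 ppm, with median changes of -0.16 and 0.00. Hsd17b7, the 3-ketosteroid reductase of C4 demethylation, had 9.07, 8.47, 8.62, 8.65 and 8.66 at 40 ppm and 8.98, 8.79, 8.62, 8.03 and 7.65 at 120 ppm, against 7.12, 7.69, 7.68, 7.39 and 7.29 in air. All 40 ppm mice lay above air, and 1 mouse at 120 ppm, replicate 5, lay within the air range. Hsd17b7 rose by 1.26 ± 0.18, or 2.40-fold, at 40 ppm (limma adjusted p = 4.34e-05) and by 0.98 ± 0.18, or 1.97-fold, at 120 ppm (adjusted p = 0.000477). Its second probe set rose by 1.21 and 1.05, and the third, dim at a mean of 3.40, had 0.08 and -0.11.

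Msmo1, the C4 methyl oxidase of the same demethylation, had 12.14, 11.67, 11.85, 11.78 and 12.02 at 40 ppm and 12.07, 11.95, 11.84, 11.36 and 11.44 at 120 ppm, against 10.90, 10.97, 11.18, 11.06 and 11.003 in air. Neither dose overlapped with air. Msmo1 rose by 0.87 ± 0.24 at 40 ppm (adjusted p = 0.0122) and by 0.71 ± 0.24 at 120 ppm (adjusted p = 0.0317). The second call ended without any 1 of air replicates 1 and 2 and 120 ppm replicates 1, 2 and 3 (adjusted p up to 0.0815), and likewise with centred arrays (0.615, adjusted p = 0.0669). Nsdhl, the dehydrogenase that works between these enzymes in C4 demethylation, had a change of -0.13 at 40 ppm (adjusted p = 0.758) and -0.07 at 120 ppm (adjusted p = 0.866), so the step's 3 genes did not share a result. The 95% interval of Nsdhl at 40 ppm ran from -0.63 to 0.36.

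Ebp, the sterol isomerase that shifts the ring double bond, went the other way. It had 11.31, 11.20, 11.19, 11.25 and 11.37 at 40 ppm and 11.38, 11.38, 11.39, 11.20 and 11.31 at 120 ppm, against 11.39, 11.46, 11.61, 11.68 and 11.72 in air. Every 40 ppm mouse lay below every air mouse, by a small margin, as for 4.22% of all probe sets. At 40 ppm Ebp fell by 0.30 ± 0.09 (log2; adjusted p = 0.0267), and its change of -0.24 at 120 ppm did not pass (adjusted p = 0.0721), but did with arrays centred on their medians (-0.33, adjusted p = 0.0166). At 20 ppm Ebp had 11.28, 11.13, 11.52, 11.27 and 10.73, and fell by 0.38 ± 0.09 (log2; adjusted p = 0.0367, but 0.145 without 20 ppm replicate 5, which was the lowest). That mouse also had the widest actin gap of the 35 arrays, 0.853, and the part of this gap in the call was not tested. At 40 ppm dropping any 1 of air replicates 3, 4 and 5 and 40 ppm replicates 2 and 3 ended the call (adjusted p up to 0.0678).

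The other late enzymes did not pass at 40 or 120 ppm. Cyp51, the lanosterol demethylase, had 0.37 at both doses (adjusted p = 0.27 and 0.242), while the third probe set of the gene, dim with a mean of 4.36, passed at 0.65 and 0.60 (adjusted p = 0.0368 and 0.0471). Tm7sf2, a sterol C14 reductase, had -0.19 and -0.21, and Sc5d, the C5 desaturase, had -0.20 and -0.15. The second probe set of Sc5d had -0.18 and -0.40 (adjusted p = 0.562 and 0.1275), and the third, dim at a mean of 4.94, had -0.05 at both doses. Dhcr7, which makes cholesterol from 7-dehydrocholesterol, had -0.19 and 0.07, and the second value had the opposite sign, -0.02, with arrays centred on their medians. At 20 ppm several of these were low without passing, with Nsdhl at -0.75 (adjusted p = 0.139), Dhcr7 at -0.67 (adjusted p = 0.211), Sc5d at -0.44 (adjusted p = 0.227) and Tm7sf2 at -0.28 (adjusted p = 0.277). Sc5d at 20 ppm, at 10.84 to 11.19, lay below all air mice, at 11.34 to 11.53. Hsd17b7 at 20 ppm lay above all air mice at 7.89 to 8.58, against 7.12 to 7.69 in air, with a change of 0.69 just over the threshold (adjusted p = 0.0546), while its second probe set rose by 0.63 (adjusted p = 0.0387). At 20 ppm 1 of 26 members thus lay above all air mice and 1 below, as did 1.19% and 0.946% of all probe sets.

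Hmgcs1 and Mvd of the mevalonate arm had high mean changes that did not pass, with wide spread between mice. Of the 5 measured members of the arm 0 were called at either dose, and the median change was 0.60 at 40 ppm and 0.46 at 120 ppm. Hmgcs1, the cytosolic HMG-CoA synthase, had 6.18, 3.76, 4.26, 4.50 and 5.61 at 40 ppm and 6.24, 4.43, 3.67, 3.14 and 2.97 at 120 ppm, against 3.50, 3.91, 3.38, 2.68 and 3.29 in air. A few mice were far above the rest, and the groups overlapped. Its changes were 1.51 ± 0.56 (adjusted p = 0.0641) and 0.74 ± 0.56 (adjusted p = 0.365). The value at 120 ppm was 0.20 without 120 ppm replicate 1, and 0.20 to 1.02 over all arrays left out in turn. The single probe set of Hmgcs1 read close to the array's median level in air, at 3.35, where the median over all probe sets was 3.52, and whether it stood above the array's background was not determined.

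Mvd, the mevalonate diphosphate decarboxylase, had 8.39, 7.39, 7.40, 7.57 and 7.85 at 40 ppm and 8.40, 8.06, 7.18, 6.48 and 6.03 at 120 ppm, against 6.15, 6.88, 7.48, 6.06 and 5.79 in air. The groups overlapped, at 40 ppm through air replicate 3 alone. The changes of Mvd were 1.25 ± 0.53 (adjusted p = 0.106) and 0.76 ± 0.53 (adjusted p = 0.321). Idi1, the isopentenyl diphosphate isomerase, was at 10.22 to 10.82 at 40 ppm, above all air mice at 9.60 to 10.12, with a change of 0.60 ± 0.37 (adjusted p = 0.278). Mvk, mevalonate kinase, had 0.44 (adjusted p = 0.124) and 0.42 (adjusted p = 0.127). Fdps, which makes farnesyl diphosphate, had 0.05 and -0.07, with a 95% interval of -0.49 to 0.35 at 120 ppm. Ggps1, which turns farnesyl into geranylgeranyl units for protein prenylation, had 5.20, 4.59, 4.99, 5.52 and 5.34 at 120 ppm, against 4.76, 4.43, 4.90, 4.40 and 4.83 in air. The groups overlapped through 120 ppm replicate 2. Ggps1 rose by 0.46 ± 0.16 (adjusted p = 0.0446), a call that held in 10 of 20 alternatives and ended, for example, without 120 ppm replicate 4 (0.36, adjusted p = 0.139). At 120 ppm its second probe set had 0.20 (adjusted p = 0.316), and the third, dim at a mean of 3.93, rose by 0.61 (adjusted p = 0.0105).

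**Figure D3:**
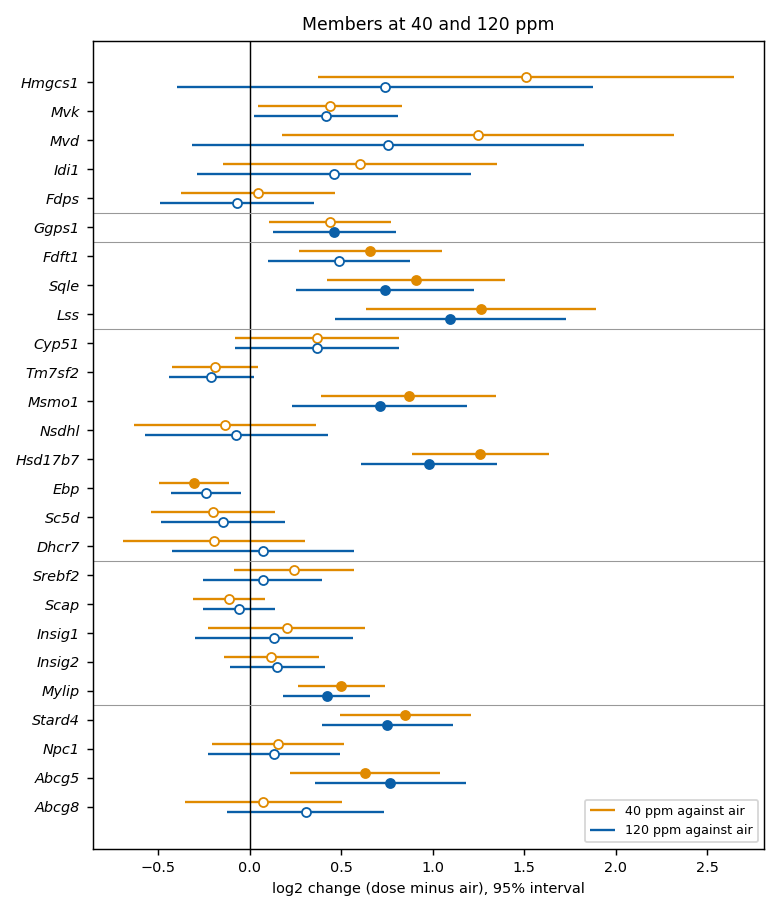
Log2 change from air with its 95% interval for each measured member in pathway order, at 40 ppm (orange) and 120 ppm (blue), with filled points for an adjusted p under 0.05. Intervals of Hmgcs1 and Mvd were wide, at 0.37 to 2.64 and 0.18 to 2.32 at 40 ppm, and those of Ebp and Scap were narrow.

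Among the genes of sterol sensing and control, only Mylip passed by its main probe set. Mylip, the ubiquitin ligase known as IDOL that LXR induces and that sends lipoprotein receptors to breakdown, had 7.80, 7.66, 7.97, 8.06 and 7.77 at 40 ppm and 7.77, 7.79, 7.78, 7.82 and 7.72 at 120 ppm, against 7.34, 7.49, 7.01, 7.37 and 7.56 in air. Neither dose overlapped with air, and the 120 ppm mice lay close together. Mylip rose by 0.50 ± 0.12 at 40 ppm (adjusted p = 0.0042) and by 0.42 ± 0.12 at 120 ppm (adjusted p = 0.0115, and 0.0538 without air replicate 3). Srebf2, which encodes SREBP2, had 0.24 at 40 ppm (adjusted p = 0.318) and 0.07 at 120 ppm (adjusted p = 0.79, and -0.02 with arrays centred). Its second probe set rose by 0.84 ± 0.24 at 40 ppm (adjusted p = 0.0169) and had 0.59 at 120 ppm (adjusted p = 0.0781), so the 2 probe sets of this gene differed in their calls. Insig1, itself a target of SREBP2, had 0.20 and 0.13 (adjusted p = 0.556 and 0.694). Its 95% interval at 120 ppm was -0.30 to 0.56. Insig2, an INSIG form whose RNA is abundant in fasted liver, had 0.12 and 0.15. Scap had -0.11 and -0.06.

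Of the 4 transport genes measured, 2 rose at both doses. Stard4, a soluble carrier that moves sterol between membranes, had 8.66, 8.80, 8.61, 8.61 and 8.83 at 40 ppm and 8.70, 8.69, 8.78, 8.42 and 8.43 at 120 ppm, against 7.996, 7.69, 7.89, 7.76 and 7.92 in air. All 40 and 120 ppm mice exceeded the air mice. Stard4 rose by 0.85 ± 0.18 at 40 ppm (adjusted p = 0.00155) and by 0.75 ± 0.18 at 120 ppm (adjusted p = 0.00327), and all 3 of its probe sets passed at both doses.

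Abcg5, a subunit of the canalicular sterol exporter, had 9.19, 9.38, 9.57, 9.34 and 9.07 at 40 ppm and 9.46, 9.64, 9.25, 9.44 and 9.45 at 120 ppm, against 8.66, 9.004, 8.12, 8.74 and 8.88 in air. The doses did not overlap with air. Abcg5 rose by 0.63 ± 0.20 at 40 ppm (adjusted p = 0.0327) and by 0.77 ± 0.20, or 1.70-fold, at 120 ppm (adjusted p = 0.00805). The 40 ppm call was lost with arrays centred (adjusted p = 0.0573), and likewise on dropping air replicate 1 or 3 or 40 ppm replicate 2, 3 or 4 (adjusted p up to 0.125). Its partner subunit Abcg8 had 7.95, 8.10, 7.67, 7.65 and 7.70 at 120 ppm, against 7.69, 7.68, 7.10, 7.65 and 7.41 in air, with overlap. The change of Abcg8 was 0.31 at 120 ppm (adjusted p = 0.316) and 0.08 at 40 ppm (adjusted p = 0.849). Whether the 2 subunits differed from each other was not tested. Npc1, which releases lysosomal cholesterol, had 0.15 at 40 ppm and 0.13 at 120 ppm (adjusted p = 0.601 and 0.628).

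No member was called between the 2 highest doses. Set directly against 40 ppm, 120 ppm had 0 members higher and 0 lower by limma, 0 at an unadjusted p under 0.05, and 0.0244% of all probe sets called. The smallest p was that of Hsd17b7, with a change of -0.28 and a 95% interval of -0.65 to 0.09. All 5 mevalonate members and all 3 members from squalene to lanosterol had a lower mean at 120 ppm than at 40 ppm, with medians of -0.14 and -0.17. The moderated F test over all 7 groups called 9 members, against 20.4% of all probe sets and 27.4% of the brighter ones. These were Fdft1, Sqle, Lss, Msmo1, Hsd17b7, Ebp, Mylip, Stard4 and Abcg5. A slope on log2(ppm + 1) was called positive in 9 members and negative in 1. The background was 21.2% and 10.8% of all probe sets and 24.8% and 13.7% of the brighter ones. Called or not, 19 member slopes were above 0 and 7 below 0. The steepest were Lss at 0.18 ± 0.04 and Hsd17b7 at 0.16 ± 0.02 per unit of log2(ppm + 1) (adjusted p = 0.000879 and 6.64e-06), and Mvk joined those called, at 0.07 (adjusted p = 0.0433). By main probe sets, the negative slope called was that of Ebp, at -0.04 (adjusted p = 0.00873). The second probe set of Sc5d also had a negative slope that passed, at -0.09 (adjusted p = 0.00707). Positive slopes passed for the second probe set of Srebf2 and the third of Cyp51 and of Ggps1, where the main ones did not.

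Another 36 genes of isoprenoid, sterol and oxysterol metabolism were counted beside the members, and 28 were measured. At 20 ppm 0 of these passed, with 3 higher and 1 lower at 40 ppm and 0 higher and 1 lower at 120 ppm. The background given above was 9.73% higher and 4.89% lower at 40 ppm and 13% and 6.4% at 120 ppm, so the share higher at 40 ppm was near it. Their median change was 0.04 at 40 ppm and 0.08 at 120 ppm. At 40 ppm Acat1, the mitochondrial thiolase, rose by 0.45 (adjusted p = 0.00348), Nceh1, a cholesteryl ester hydrolase, by 0.66 (adjusted p = 0.0418) and Stard5, a sterol carrier, by 0.29 (adjusted p = 0.0488). Pdss2, of the ubiquinone side chain, fell by 0.36 in log2 units (adjusted p = 0.0311). At 120 ppm Cyp7b1, the oxysterol hydroxylase, fell by 0.81 ± 0.24 in log2 units (adjusted p = 0.0155).

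Mice of 1 dose also differed from each other along the whole pathway. In 1 ppm replicate 4, 14 of the 17 measured synthesis enzymes were the lowest of their group, as were 12 in 10 ppm replicate 2 and 14 in 20 ppm replicate 5. The median deviations of these mice from their group means were -0.76, -0.64 and -0.62. Idi1, for instance, was at 8.05 in 1 ppm replicate 4, where the other 4 mice lay at 10.27 to 10.56. At the other end, 40 ppm replicate 1 and 120 ppm replicate 1 had all 17 enzymes above their group mean, with median deviations of 0.34 and 0.41. At 120 ppm replicates 4 and 5 were low, at -0.36 for each. Without the 3 low mice, a choice made after their values were seen, 9 members rose and 1 fell at 40 ppm. Likewise 9 rose and 1 fell at 120 ppm, and 0 fell at 20 ppm. The share of all probe sets called without these mice was not determined.

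**Figure D4:**
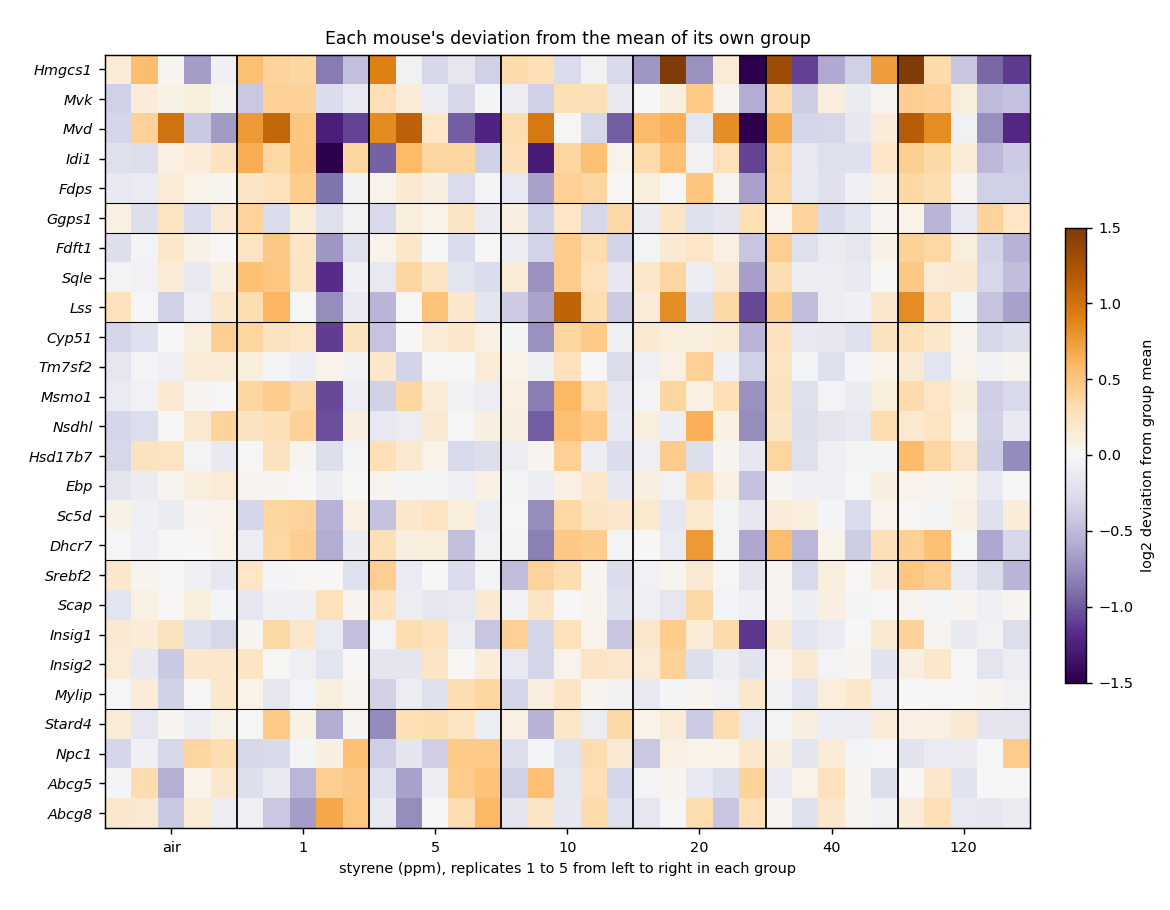
Log2 deviation of each mouse from the mean of its own dose group (colour), for the 26 measured members in pathway order (rows) and 35 mice (columns, replicates 1 to 5 within each styrene concentration in ppm). Columns of 1 colour across the enzyme rows mark mice such as 1 ppm replicate 4 and 20 ppm replicate 5, with median deviations of -0.76 and -0.62.

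Many of the enzymes varied together within groups, though not all. Deviations from group means over 35 mice were correlated between Hmgcs1 and each of 25 other members, with permutation of mice within groups. Of 25 pairs 8 passed after Benjamini-Hochberg adjustment, all positive, and all 8 passed by Spearman's rho as well. These 8 included 6 of the other 16 enzymes. Over 17096 other genes 1.15% had r over 0.5 with Hmgcs1, as had 6 of the 25 members. The share of all genes that would pass the permutation test was not determined. Hsd17b7 was highest by Pearson's r (r = 0.704, rho = 0.683, permutation adjusted p = 0.0005 and 0.00025), with r = 0.62 when the 2 mice farthest from the median of Hmgcs1 were left out. Mvd followed by r but was higher by rho (r = 0.654, rho = 0.731, permutation adjusted p = 0.0015 and 0.00025), and had r = 0.694 without those mice. The others were Lss, Insig1, Fdft1, Sqle, Srebf2 and Msmo1, at r from 0.47 to 0.594. With the place of the title number within the group removed, 5 pairs passed.

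Because Hmgcs1 was dim, Sqle was also set against the other members, a choice made after seeing the data. Of 25 pairs 21 passed by Pearson's r, 17 positive and 4 negative, and 20 of them passed by Spearman's rho too. Of the other 16 enzymes 14 passed, all positive, and Tm7sf2 (r = 0.168) and Ggps1 (r = 0.126) did not. Msmo1 followed Sqle most closely (r = 0.95, rho = 0.927, permutation adjusted p = 4.17e-05 and 3.57e-05), from a p of 1e-05, the smallest these permutations can give. Without the 2 mice farthest from the median of Sqle its r was 0.916, and without the 3 low mice 0.87. Idi1 had r = 0.90, and 0.70 without the 3 low mice, and Fdft1 had 0.857 and 0.805. The relation of Nsdhl leaned on those mice, with r = 0.777 over all and 0.38 without them, as did that of Sc5d, with 0.577 and 0.144. Ebp, the enzyme that fell, had r = 0.443 over all mice and 0.184 without the 3. The exporter genes had negative r with Sqle. Abcg5 was at r = -0.551 (rho = -0.514, permutation adjusted p = 0.00355 and 0.00982). Abcg8 was at r = -0.517 (rho = -0.405, permutation adjusted p = 0.0133 and 0.0498). Such values were not peculiar to exporters. Over 17096 other genes the 2.5 percentile of r with Sqle was -0.525. Of the 4 negative pairs only Abcg5 lay below it, by little. Counted from the lowest r, Abcg5 ranked 318 and Abcg8 465. Without the 3 low mice the r of Abcg5 and Abcg8 was -0.346 and -0.298, with no test. Scap passed by Pearson's r alone (r = -0.45, rho = -0.303, permutation adjusted p = 0.03 and 0.114). The remaining negative pair was Npc1 (r = -0.401, rho = -0.468, permutation adjusted p = 0.0421 and 0.0149). Its r was farther from 0, at -0.543, without the 3 low mice, also with no test.

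Set against all 17096 other measured genes, the 5 whose within-group pattern was most like that of Sqle were Msmo1, Idi1, Fdft1, Fdps and Cyp51. Of the 15 most alike, 7 were members, and 15 of 25 members had r over 0.5, as had 2.67% of all genes. The gene nearest to Sqle outside the list was Aldoc, an aldolase, at r = 0.815. All points share arrays and normalization, and these ranks describe likeness over 35 mice.

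**Figure D5:**
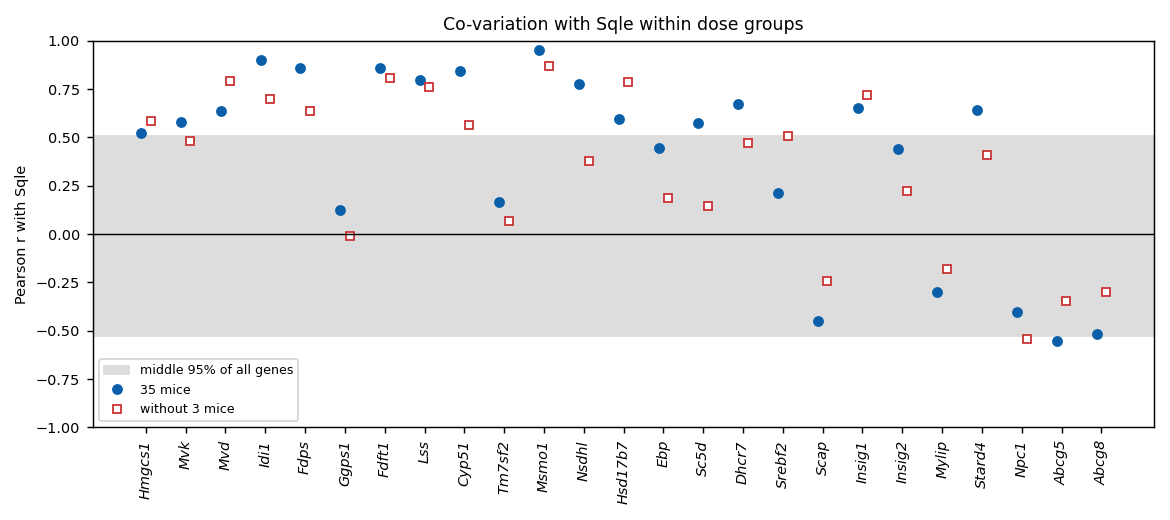
Pearson r of each member with Sqle, from deviations within dose groups, over 35 mice (filled circles) and without the 3 mice with low enzyme values (open squares), in pathway order. Grey marks the middle 95% of r over all genes, from -0.525 to 0.505, and Msmo1 stood highest at 0.95 while Abcg5 stood lowest at -0.551.

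Values also followed the place of the number in the sample title within its group for 3 members, where 2.32% of probe sets did. Mvd changed by -0.42 ± 0.07 per place (limma adjusted p = 0.000313), Insig1 by -0.13 ± 0.03 (adjusted p = 0.022) and Npc1 by 0.14 ± 0.02 (adjusted p = 0.000523). The labels do not say what the number stands for. Across groups the number rose with dose without overlap, so its order and dose cannot be told apart. Place is a rank within each group, so as a covariate it does not adjust for this. With that place as a covariate the 8 calls of 120 ppm stood, and Fdft1 passed as well (0.49, adjusted p = 0.0478).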

How the data were processed

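The authors deposited 1 log2 value per probe set for each of 35 Affymetrix 3′ IVT arrays of liver RNA, and RMA and Partek are named in the submitters' processing notes, with nothing on how they were used. Base 2 was inferred because values ran between 1.74 and 14.23. No scanner values were used here, so detection could not be judged, and the number of arrays limits the precision. No normalization was added. Of 45141 probe sets 104 controls were left out. A gene was named only by a probe set that names it alone, and its main probe set was the one with the highest mean over all arrays (43 probe sets for 26 members, 11 members with several).

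A linear model with 7 group means was fitted to all 45037 probe sets in R 4.3.3 with limma 3.58.1 (28 residual and 5.41 prior degrees of freedom), with tables read by data.table, version 1.17.8. P-values were adjusted by Benjamini-Hochberg over all probe sets, with a threshold of 0.05. Errors marked ± are SE of the fit. Correlations used 100000 permutations within groups, in Python 3.11.15 with scipy 1.17.1. The scripts were tested on simulated data. All members were named in the text. Members and lists were chosen with earlier results of these data known. Alternatives were array centring, a second quantile normalization, an intensity-dependent prior, array weights, brighter probe sets alone, the mean of a gene's probe sets, the replicate block, the place of the title number, the rank of the dose, only the groups compared, and leaving out each array of a comparison. Promoters were matched by symbol for 24 of 30 members to RefSeq windows of GRCm38.p6.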

Additional observations from a re-analysis of the deposited data

Results flagged for a closer look

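Of 182 sets of 5 mice (26 members in 7 groups), 12 held a mouse set apart from the other 4 by a gap that was large for the range, where chance gives about 1 in 20. Most lay in the mice with low synthesis enzymes. In 1 ppm replicate 4, Idi1 was at 8.05 (nearest other mouse 10.27), Cyp51 at 8.61 (9.93), Nsdhl at 9.05 (10.19) and Ebp at 11.35 (11.44). In 10 ppm replicate 2, Idi1 was at 8.50 (9.84). In 20 ppm replicate 5, Cyp51 was at 9.03 (9.68) and Insig1 at 8.41 (9.70).

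The remaining ones were spread over other mice. Hmgcs1 was at 4.36 in 5 ppm replicate 1, above the next at 3.40, and Scap was at 10.04 in 20 ppm replicate 3, above 9.66. Mvk was at 7.17 in air replicate 1, below 7.56, and Srebf2 was at 6.86 in 40 ppm replicate 2, below 7.17. Npc1 was at 7.71 in 20 ppm replicate 1, below 8.19.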

How the results depend on the processing

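At 120 ppm the calls of Lss, Hsd17b7, Stard4 and Abcg5 held in all 20 alternatives tried, that of Mylip in 19, those of Msmo1 and Sqle in 14 each and that of Ggps1 in 10. At 40 ppm Lss, Hsd17b7, Sqle, Msmo1, Stard4 and Mylip held in all 20, Fdft1 in 19, Ebp in 15 and Abcg5 in 14, and at 20 ppm Ebp held in 11. Centring arrays on their medians shifted all changes at 120 ppm by 0.095. It gave 5 members higher and 1 lower at 120 ppm, and 2 negative slopes that were called. Dhcr7 (-0.022) and Srebf2 (-0.024) turned sign at 120 ppm with this centring. After a second quantile normalization the median change at 40 ppm was 0.304. The intensity-dependent prior, array weights, the brighter probe sets alone and the place covariate each gave 1 member higher at 20 ppm. Array weights gave 1 member lower at 120 ppm. Negative slopes that were called numbered 2 with the prior, weights, brighter probe sets or rank of dose, and 3 with the mean of all probe sets. A fit of only the groups compared gave 13 members higher at 40 ppm and 0 lower at 20 ppm. Without the 3 low mice 0 members were lower at 20 ppm and 1 was lower at 120 ppm. Correlation calls numbered 5 with the place covariate and 21 with Sqle in place of Hmgcs1. The cause of these differences was not tested, and the share of all probe sets called under each alternative was not determined.

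Leaving out each array in turn gave 5 to 8 members higher and 0 to 1 lower at 120 ppm, 7 to 8 higher and 0 to 1 lower at 40 ppm, and 0 to 1 higher and 0 to 2 lower at 20 ppm. It gave 8 to 11 members by the F test, and 8 to 11 positive and 1 to 2 negative slopes that were called. Median changes were 0.283 to 0.448 at 120 ppm and 0.321 to 0.460 at 40 ppm. The 5 members higher at 120 ppm came without air replicate 2, 120 ppm replicate 1 or 120 ppm replicate 3. Near-zero changes at 120 ppm turned sign in Dhcr7 (-0.06 to 0.228), Fdps (-0.16 to 0.02), Nsdhl (-0.153 to 0.027) and Srebf2 (-0.051 to 0.204).

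The labels do not pair mice by replicate number. Within each group the replicate number runs in the order of the title number, so the replicate block and the place covariate overlap. Values of Mvd, Insig1 and Npc1 followed that order, as given above. Deviations of same-numbered mice correlated at a median of 0.0268, with 31 of 105 pairs over 0.1. For other mice the median was -0.0112, with 94 of 420 pairs over 0.1. With a replicate block 10 members rose and 1 fell at 40 ppm, 8 rose at 120 ppm, and 1 rose at 20 ppm.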
